A study of Mus musculus with 42 samples.

Results

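The circadian clock genes described here are Arntl, Clock, Per1, Per2, Per3, Cry1, Cry2, Nr1d1, Nr1d2 and Dbp, chosen by gene symbol. They are 10 of the 13809 genes in the expression table, each is found under its own symbol, and all 10 passed the filter on low values. RNA was sequenced from tibialis anterior muscle, a muscle of the lower hindlimb, of male C57BL/6J mice 4 months of age, in 42 libraries that fall into 11 groups and 2 sets, which the labels name only by number. Set 1 holds WT, Sesn1SkM-Tg and Sesn2SkM-Tg muscle, each basal or immobilized. Set 2 holds WT and Sesn1KO muscle, each basal or immobilized, and denervated WT muscle. Immobilized muscle was taken 3 days after the right hindlimb alone had been fixed with rigid sticks, denervated muscle 3 days after a 5 mm piece of the sciatic nerve had been removed, and basal muscle from mice with neither procedure. Groups are of 4 libraries, or of 3 for WT and Sesn1SkM-Tg muscle immobilized in set 1.

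Sesn1SkM-Tg mice carry human Sesn1 under the muscle creatine kinase (MCK) promoter, and Sesn2SkM-Tg mice express Sesn2 from a Tet-regulated promoter together with MCK-tTA, so both transgenes are driven in muscle fibres. Sesn1KO mice carry a knockout of Sesn1 and came from another laboratory. Non-transgenic littermates served as controls for the transgenic lines, while the labels give a single WT group per treatment in set 1. The mice were housed under 12 h of light and 12 h of darkness, and the sources used here do not give the hour at which any muscle was collected. A change of the clock by disuse and a difference in collection time between groups therefore cannot be told apart in these data.

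The circadian clock is a loop of transcription and repression that runs in nearly every cell, muscle fibres included. CLOCK and BMAL1, the product of Arntl, bind E-boxes and switch on the Per and Cry genes, whose proteins return to the nucleus and repress CLOCK and BMAL1. In a second loop the REV-ERB receptors, encoded by Nr1d1 and Nr1d2, repress Arntl through ROR elements. Dbp is a direct E-box target whose protein drives other genes through D-boxes. Arntl RNA peaks at nearly the opposite time of day from Dbp and Nr1d1 RNA, so these genes report on the phase at which a tissue was taken as well as on its state. Per1 and Per2 also respond to acute signals, glucocorticoids and cAMP signalling among them. Muscle contraction and feeding are known cues for the muscle clock.

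Promoter stretches of 4 of the members that held such elements are printed here. RefSeq promoter windows (GRCm38.p6), which run from 250 bases before to 50 bases after a start, were found for 9 of the 10 genes, 13 windows in all. They were searched on both strands for the E-box CACGTG, the E-prime box CACGTT, the ROR element core TAGGTCA, the D-box TTANNTAA and the core TGACG of the cAMP response element (CRE). No match overlapped another. Capitals mark these matches, those on the other strand as their reverse complement, and each sequence runs 5′ to 3′ on the strand of the gene. The Cry1 stretch (chr10:85185055-85185304, minus strand) is shown for its E-box beside an E-prime box, the Per1 stretch (chr11:69098699-69098948, plus strand) for an E-box with a CRE core, and the Per3 stretch (chr4:151044666-151044915, minus strand) for its D-boxes. The Arntl stretch (chr7:113207531-113207557, plus strand) holds the ROR element core, 30 bases after the start.
Cry1: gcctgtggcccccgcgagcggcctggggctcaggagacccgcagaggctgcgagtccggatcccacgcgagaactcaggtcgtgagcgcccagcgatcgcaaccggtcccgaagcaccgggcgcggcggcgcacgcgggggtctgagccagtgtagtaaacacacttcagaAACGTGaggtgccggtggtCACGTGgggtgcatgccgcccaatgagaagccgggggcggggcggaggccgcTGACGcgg
Per1: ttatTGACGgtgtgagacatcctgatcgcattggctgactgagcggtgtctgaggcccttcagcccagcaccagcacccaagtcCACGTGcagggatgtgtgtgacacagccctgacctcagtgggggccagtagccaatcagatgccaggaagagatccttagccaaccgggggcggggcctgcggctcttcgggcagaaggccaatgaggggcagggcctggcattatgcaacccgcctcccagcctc
Per3: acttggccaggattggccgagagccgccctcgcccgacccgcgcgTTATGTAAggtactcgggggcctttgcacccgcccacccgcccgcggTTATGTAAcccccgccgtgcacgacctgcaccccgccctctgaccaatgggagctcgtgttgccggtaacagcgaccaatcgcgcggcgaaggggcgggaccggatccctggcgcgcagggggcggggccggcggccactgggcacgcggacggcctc
Arntl: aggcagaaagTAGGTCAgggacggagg

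An E-box was present in windows of 2 genes, Cry1 (60 bases before the start) and Per1 (166 bases before it), while 7.15% of all 32851 windows held one. An E-prime box was present in windows of 3 genes, Cry1, Cry2 and Nr1d1 (4.68% of all windows). The D-box was matched in Per3 alone, 205 and 158 bases before the start (6% of all windows), and the ROR element core in Arntl alone, in 1 of its 2 windows (2.61%). The windows of Clock, Dbp and Nr1d2, 3 of the 9 genes searched, held none of the 5 motifs. CRE cores lay in windows of Cry1, Cry2 and Per1, the latter in each of 2 windows (20.8%). A match is a run of letters in this window and is not evidence that a factor binds there.

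Values are given as normalized counts, linear and not divided by length, and the number of reads behind them is unknown. Because the labels do not say that replicates came from separate animals, p-values measure the spread between these libraries, which may be partly technical. In bulk muscle, fewer cells of a type and less RNA per cell cannot be told apart. Summed values ran from 722430 to 1276769 per library, lowest in denervated muscle (722430 to 811541). When libraries were scaled to the same sum, the median log2 fold change of all genes after disuse moved to between 0.06 and 0.35, against -0.03 to 0.00 as deposited, and the called genes split into 4087 higher and 741 lower for WT of set 1 instead of 2037 and 1981. The same scaling gave 4138 and 874 for Sesn1SkM-Tg (as deposited 2489 and 2267), 3924 and 959 for Sesn2SkM-Tg (2055 and 2149), 2940 and 1629 for WT of set 2 (2205 and 2419), 2970 and 1974 for Sesn1KO (2346 and 2708), 6353 and 1886 for denervation against basal (3792 and 3775) and 5500 and 1183 for denervation against immobilization (2789 and 2508). Member changes are therefore given on the deposited scale, and this scaling turned the direction of no called member. Sesn1 lay between 8.42 and 10.1 in basal Sesn1KO libraries and between 22.5 and 29.7 in basal WT libraries of set 2, but between 19.4 and 37.3 after immobilization of Sesn1KO muscle, overlapping immobilized WT muscle (30.7 to 53.1). In Sesn1SkM-Tg libraries Sesn1 reached 23.0 to 77.6 (set 1 WT 12.4 to 22.1), and in Sesn2SkM-Tg libraries Sesn2 reached 6.54 to 14.4 (set 1 WT 1.86 to 3.39). Summed muscle fibre markers (Ckm, Acta1, Myh4, Myh1, Tnnt3) lay between 44080 and 135000 in every library, and summed leukocyte markers between 21.2 and 361. Of 6 leukocyte markers 5 were in the table (not Adgre1), and none of these 5 was at 0. Basal WT replicate 4 and basal Sesn2SkM-Tg replicate 2 of set 1 stood apart from their groups, since their deviations fell with transcript length (Spearman rho -0.36 and -0.45 across genes, which are not independent). Values without them are given beside the results that they moved most.

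Ordered by level per kilobase of exon, the REV-ERB genes and Dbp came first in basal WT muscle. Dbp ranked 4 in immobilized WT muscle of set 1 and in immobilized Sesn2SkM-Tg muscle, and 5 in immobilized Sesn1KO muscle. In basal WT muscle of set 1, Nr1d1 had 47.8 ± 11.1 normalized counts per kb (SD, n = 4), Nr1d2 24.9 ± 6.12 and Dbp 18.6 ± 6.32, and Per2 came last with 1.72 ± 0.591. Set 2 had the same first 3 and the same last gene (Nr1d1 33.5 ± 10.3, Nr1d2 24.8 ± 1.88, Dbp 12.9 ± 5.26, Per2 1.55 ± 0.624). The 6 genes between them lay from 2.40 to 7.07 in set 1 and from 1.88 to 4.77 in set 2, and several neighbours in that order, such as Arntl and Per3, differed by less than their SDs. All 42 libraries held every member, with normalized counts between 3.81 and 188.

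**Figure D1:**
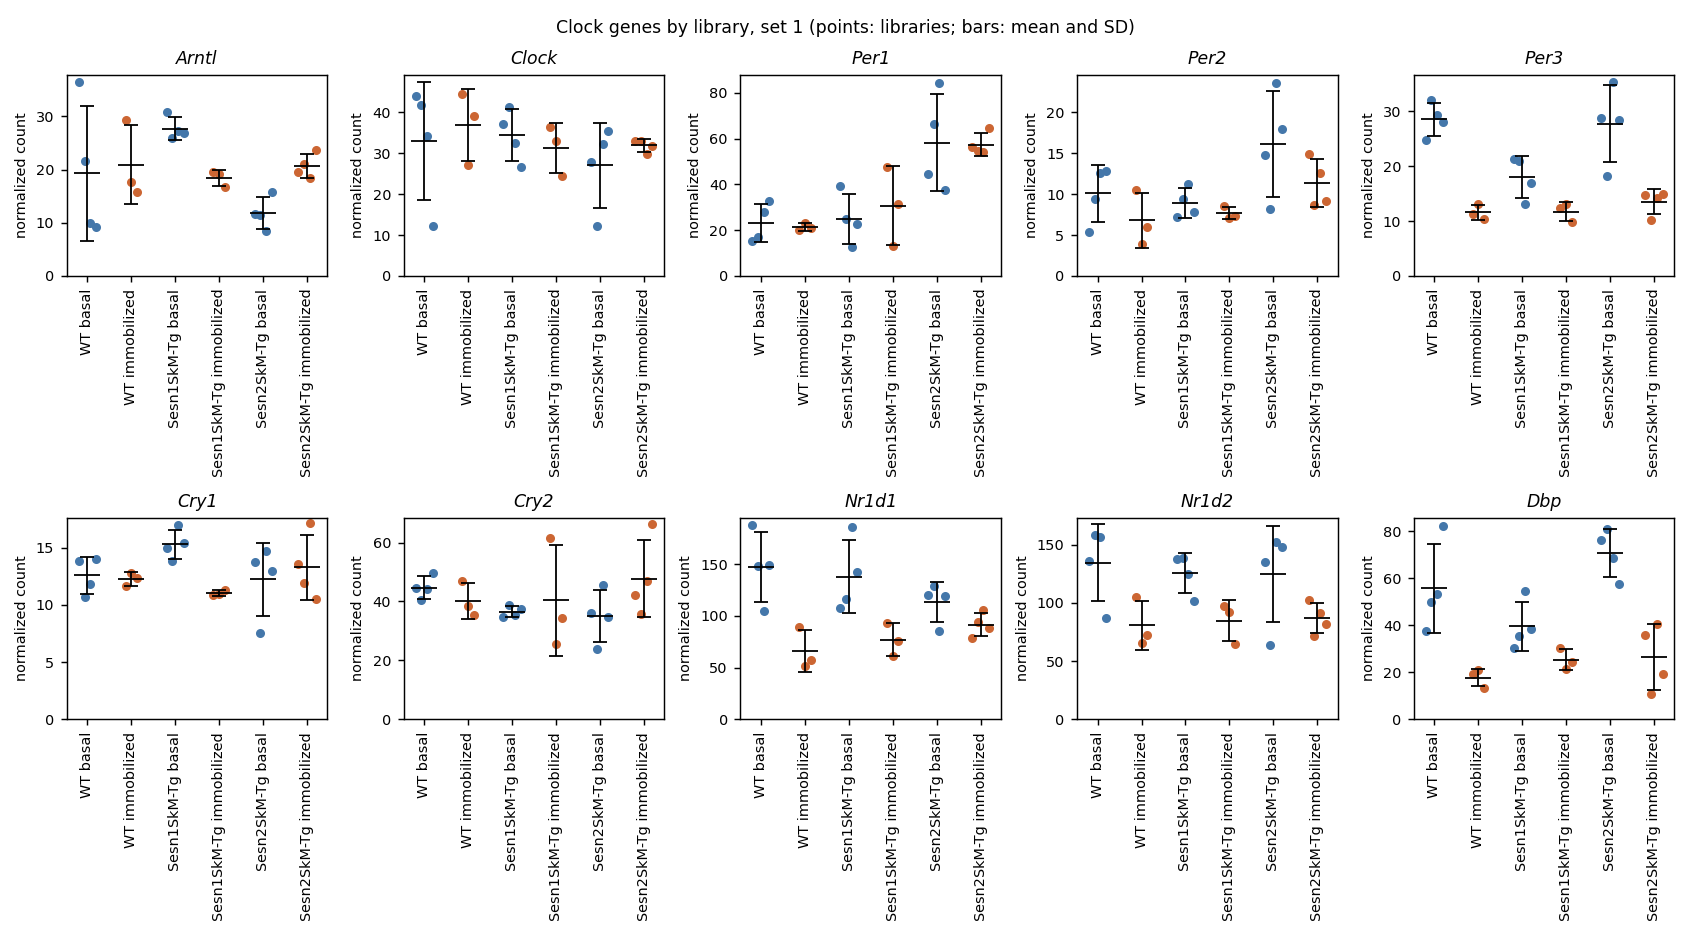
Normalized counts of the 10 clock genes (y axis, linear, from 0) in each library of set 1 (x axis: group). Points are libraries, blue basal and orange immobilized, and the bars give the mean and SD. Per3 and Dbp of WT and Sesn2SkM-Tg muscle lie lower after immobilization, and Per1 lies higher in both Sesn2SkM-Tg groups than in WT.

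**Figure D2:**
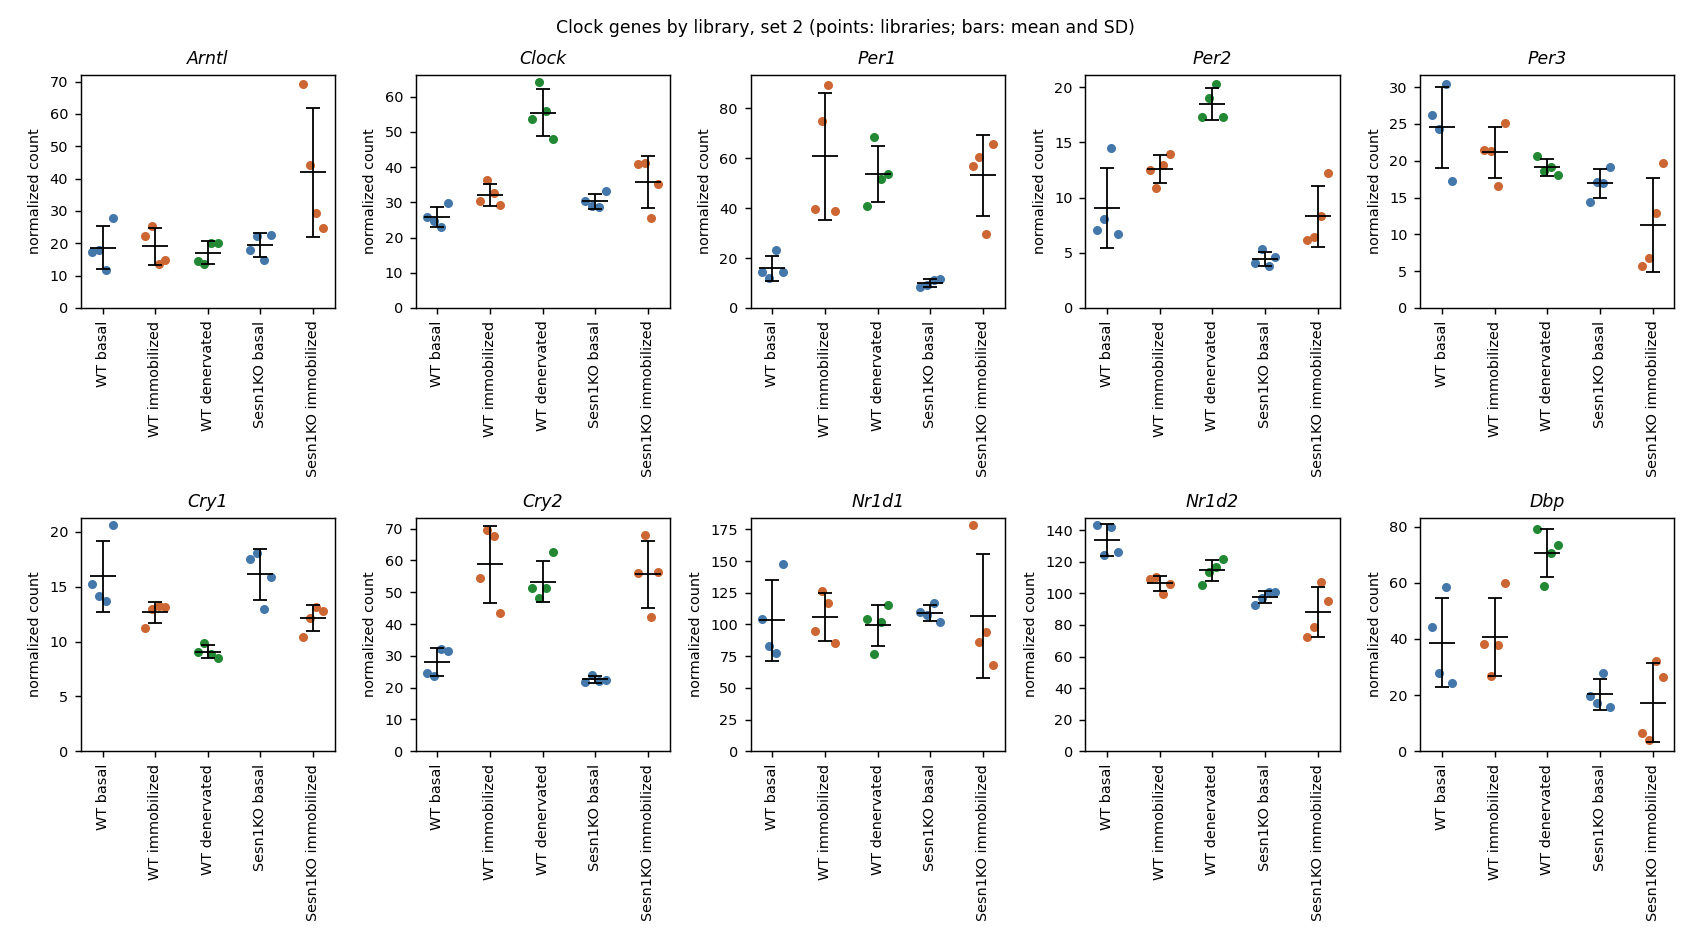
Normalized counts of the same genes in each library of set 2 (y axis, linear, from 0, x axis: group). Points are libraries, blue basal, orange immobilized and green denervated, and the bars give the mean and SD. Per1 and Cry2 rise in all 3 disuse groups, Clock is highest in denervated muscle, and the 4 immobilized Sesn1KO libraries spread widely for Arntl, Per3 and Dbp.

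Per3 fell in all 3 genotypes of set 1 after immobilization, and Dbp and Nr1d1 in 2 each. Of the 10 members, 4 fell in immobilized WT muscle of set 1, Per3, Nr1d1, Nr1d2 and Dbp, and none rose, while 29.3% of all genes tested were called, 14.5% lower and 14.9% higher. Members' median log2 fold change was -0.34 (all genes 0.00). Calls need an adjusted p below 0.05 together with a log2 fold change of 0.25 or more in either direction, on the scale of log2(normalized count + 1), which understates the change of low genes.

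Dbp, the E-box output gene on chromosome 7 (45705088 to 45710203), had normalized counts of 37.4, 49.96, 53.5 and 82.1 in basal WT muscle of set 1 and 19.0, 20.8 and 13.5 after immobilization. Every immobilized library lay below every basal one. The log2 fold change was -1.56 ± 0.32 (SE, adjusted p = 0.0014, limma with Benjamini-Hochberg adjustment). Per3, a member of the Period repressors on chromosome 4 (151003652 to 151044665), showed 24.8, 32.0, 29.4 and 28.0 against 11.3, 13.2 and 10.4, again without overlap (log2 fold change -1.22 ± 0.19, adjusted p = 0.00017). Across all genes, 33.6% did not overlap between these groups.

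Nr1d1, which encodes REV-ERB alpha (chromosome 11, 98767932 to 98775333), went from 188, 148, 104 and 149 in basal WT muscle to 89.1, 51.9 and 57.2 after immobilization. The groups did not overlap, and the log2 fold change was -1.15 ± 0.22 (adjusted p = 0.00074). Its relative Nr1d2, REV-ERB beta (chromosome 14, 18204054 to 18239127), had 136, 159, 156 and 87.3 in basal muscle against 105, 65.6 and 72.4, where replicate 4 of the basal group, one of the libraries standing apart, lay inside the immobilized range. The Nr1d2 change of -0.72 ± 0.26 (adjusted p = 0.042) was not called when basal replicate 1 (-0.70, adjusted p = 0.074), 2 (-0.63, 0.11) or 3 (-0.63, 0.1) or immobilized replicate 2 (-0.58, 0.16) or 3 (-0.65, 0.15) was left out. It was also lost with quantile normalization (-0.59, adjusted p = 0.099), with the same sum per library (-0.38, 0.31) and with only these groups in the fit (adjusted p = 0.058).

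The activators and the Cry genes did not pass the test in immobilized WT muscle of set 1. Arntl, on chromosome 7 (113207465 to 113314126), had the widest basal spread, with 36.4, 21.6, 10.0045 and 9.26 normalized counts before and 29.4, 17.6 and 15.7 after immobilization (log2 fold change 0.27, 95% interval -0.38 to 0.91). In the same 4 basal libraries Dbp read 37.4, 49.96, 53.5 and 82.1, so the library lowest in Arntl was highest in Dbp. That library is replicate 4, which stood apart by transcript length, and Arntl has 7.52 kb of exon where Dbp has 2.99 kb. Without it the log2 fold change was 0.01 for Arntl (adjusted p = 0.99), -1.36 for Dbp (0.0048) and -0.91 for Nr1d2 (0.012). Clock (chromosome 5, 76209868 to 76304792) had 43.9, 41.6, 34.1 and 12.2 against 44.3, 27.1 and 39.1, the lowest value again in basal replicate 4, and its log2 fold change went from 0.27 (adjusted p = 0.58) to -0.13 (0.74) without that library. Per1, Per2, Cry1 and Cry2 had log2 fold changes of -0.05, -0.53, -0.03 and -0.16, with adjusted p between 0.21 and 0.93.

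Summed leukocyte markers were 32.9 to 48.7 in basal and 154 to 328 in immobilized WT muscle of set 1, and summed muscle fibre markers 101700 to 125700 against 65930 to 81710. All 5 leukocyte markers, 3 of 4 fibroblast and 2 of 3 Schwann cell markers rose, and 2 of 5 muscle fibre markers fell. Their part in the clock gene changes was not tested.

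In Sesn1SkM-Tg muscle 2 members fell after immobilization, Per3 and Nr1d1, and 8 did not pass the test (34.7% of all genes were called, 16.5% lower and 18.2% higher). Nr1d1 had 107, 116, 185 and 142 in basal libraries and 93.5, 61.5 and 75.4 in immobilized ones, a log2 fold change of -0.82 ± 0.22 (adjusted p = 0.0066). Per3 had 21.3, 21.0, 13.2 and 17.02 against 12.3, 13.1 and 9.77. The immobilized libraries lay below the basal ones in both genes, as in Arntl, Cry1, Nr1d2 and Dbp, and 41.3% of all genes did not overlap between these groups.

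The Per3 change in Sesn1SkM-Tg muscle was -0.57 ± 0.19 (adjusted p = 0.026). It was not called without basal replicate 1 (-0.49, adjusted p = 0.081), basal replicate 2 (-0.50, 0.074) or immobilized replicate 3 (-0.46, 0.14), and neither Per3 (-0.29, 0.3) nor Nr1d1 (-0.52, 0.064) was called with the same sum per library. Dbp had 30.3, 35.3, 54.5 and 38.5 in basal and 30.2, 21.4 and 24.4 in immobilized libraries (log2 fold change -0.61 ± 0.32, adjusted p = 0.15). With only these 2 groups in the fit, 6 members were called, adding Arntl (-0.56, adjusted p = 0.0075), Cry1 (-0.43, 0.028), Nr1d2 (-0.57, 0.024) and Dbp (-0.61, 0.034). Without the 2 libraries that stood apart, neither of which is a Sesn1SkM-Tg library, 4 members were called, Cry1 (adjusted p = 0.014) and Nr1d2 (0.0092) being added. Leukocyte markers summed to 21.2 to 44.4 in basal and 126 to 361 in immobilized Sesn1SkM-Tg muscle, and muscle fibre markers to 104400 to 108100 against 64120 to 91520. All 5 leukocyte, all 4 fibroblast, all 3 Schwann cell and 2 of 3 endothelial markers rose, and 2 of 5 muscle fibre markers fell. Of 3 adipocyte markers 1 rose and 1 fell. The part of these markers in the clock gene values was not tested.

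In Sesn2SkM-Tg muscle Dbp and Per3 fell and Arntl rose after immobilization, 3 of 10 members (30.7% of all genes were called, 15.7% lower and 15% higher). Dbp had 76.1, 81.1, 68.8 and 57.4 in basal and 35.8, 10.6, 40.3 and 19.1 in immobilized libraries, without overlap (log2 fold change -1.55 ± 0.30, adjusted p = 0.00058). Per3 had 28.8, 18.3, 35.5 and 28.5 against 14.8, 10.3, 14.3 and 15.0 (-0.96 ± 0.18, adjusted p = 0.00043). All immobilized libraries lay below all basal ones in both genes (30% of all genes did not overlap).

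Arntl had 11.6, 11.4, 8.46 and 15.8 normalized counts in basal Sesn2SkM-Tg muscle and 19.5, 21.1, 18.4 and 23.7 after immobilization. Every immobilized library lay above every basal one, and the log2 fold change was 0.78 ± 0.29 (adjusted p = 0.043). That call rested on nearly all of the libraries, since it was lost without any of 7 of the 8, everything but basal replicate 4, with values from 0.65 (adjusted p = 0.13 without basal replicate 3) to 0.84 (0.054 without immobilized replicate 3). Nr1d2 had 135, 63.4, 153 and 148 in basal and 103, 72.0, 91.7 and 81.7 in immobilized libraries, the low basal value being that of replicate 2, which stood apart. Its change was -0.45 ± 0.24 with all libraries (adjusted p = 0.17) and -0.74 (0.0077) without that replicate. Without it Clock went from 0.33 (adjusted p = 0.46) to 0.00 (0.99), Cry1 from 0.13 (0.59) to -0.07 (0.73) and Per3 from -0.96 to -1.14 (4.22e-05). Cry2 was at 0.43 (adjusted p = 0.14), and at 0.74 (0.009) with the same sum per library. Leaving out both libraries that stood apart gave 5 called members in this comparison, with Nr1d2 (-0.74, adjusted p = 0.0017) and Per2 (-0.69, 0.049) added. Leukocyte markers, 3 of 5 of which rose, summed to 32.3 to 46.2 in basal and 81.3 to 232 in immobilized Sesn2SkM-Tg muscle. Of the other markers 2 of 3 endothelial, 2 of 3 Schwann cell and 1 of 3 adipocyte markers rose, and 2 of 5 muscle fibre markers fell. The part of these markers was not tested.

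In set 2, Per1 and Cry2 had the largest changes of the members in immobilized WT muscle. After immobilization of WT muscle, Per1 and Cry2 rose and Nr1d2 fell, 3 of 10 members (33.9% of all genes were called, 16.2% higher and 17.7% lower). Members' median log2 fold change was 0.08 (all genes -0.02). Neither Dbp, Per3 nor Nr1d1 passed the test there.

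Per1, a Period repressor that also responds to acute signals (chromosome 11, 69095217 to 69109960), had 14.3, 11.9, 23.2 and 14.5 in basal WT muscle of set 2 and 39.6, 75.1, 89.6 and 38.9 after immobilization. The 2 groups did not overlap, and the log2 fold change was 1.81 ± 0.26 (adjusted p = 2.31e-05). Cry2, a Cryptochrome repressor (chromosome 2, 92403646 to 92434043), had 24.7, 23.6, 32.2 and 31.6 against 54.6, 69.4, 67.7 and 43.6, also apart (1.03 ± 0.15, adjusted p = 1.73e-05). Nr1d2 had 143, 124, 142 and 126 against 109, 111, 99.4 and 106, a smaller fall by 0.33 on the log2 scale (SE 0.10, adjusted p = 0.012) that was not called with the same sum per library (adjusted p = 0.1). Across all genes 32.2% did not overlap between these groups.

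Dbp had 44.3, 27.9, 58.4 and 24.3 in basal and 38.3, 26.7, 37.8 and 60.1 in immobilized WT muscle of set 2, so the groups overlapped throughout (log2 fold change 0.10, 95% interval -0.79 to 0.99). Per2 (chromosome 1, 91415982 to 91459324) had 7.04, 8.03, 14.5 and 6.70 against 12.5, 10.9, 12.96 and 13.9. The Per2 change of 0.49 ± 0.20 (adjusted p = 0.061) was called at 0.71 (0.0036) without basal replicate 3, the only basal library that was not below all immobilized ones. Clock was at 0.31 ± 0.13 (adjusted p = 0.071) with all libraries and 0.37 (0.042) without basal replicate 4. Cry1 was at -0.30 ± 0.13 (adjusted p = 0.081). Each immobilized library (at most 13.2) lay below each basal one (at least 13.7), where 32.2% of all genes did not overlap. With the same median per library, 5 members were called, Clock (0.34, adjusted p = 0.04) and Per2 (0.52, 0.049) being added. The same sum per library also added Clock (0.43, 0.03) and Per2 (0.60, 0.029), quantile normalization added Per2 (0.52, 0.049), and only these groups in the fit added Clock (0.31, 0.048). Summed leukocyte markers were 26.4 to 123 in basal and 92.7 to 183 in immobilized WT muscle of set 2, and summed muscle fibre markers 110700 to 121700 against 104000 to 110500. All 3 endothelial markers fell (median log2 fold change -0.59), as did 2 of 3 adipocyte markers (median -0.63), while 2 of 5 leukocyte markers rose. Whether they bear on the clock genes was not tested.

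Immobilized Sesn1KO muscle had the most called members, 6 of 10 where 37.1% of all genes were called. Arntl, Per1, Per2 and Cry2 rose (17.2% of all genes were called higher), and Per3 and Cry1 fell (19.9% lower). Per1 had 8.52, 9.14, 11.4 and 11.5 in basal and 56.8, 60.3, 29.6 and 65.8 in immobilized Sesn1KO libraries, the largest log2 fold change of any member in the 6 comparisons of disuse with basal muscle (2.23 ± 0.26, adjusted p = 1.28e-06). Cry2 had 21.8, 24.0, 22.2 and 22.4 against 56.0, 68.0, 42.3 and 56.5 (1.25 ± 0.15, adjusted p = 1.17e-06). Per2 had 4.06, 5.30, 3.81 and 4.63 against 6.18, 6.47, 8.37 and 12.2 (0.74 ± 0.20, adjusted p = 0.0054). In these 3 genes, and in Arntl, each immobilized library lay above each basal one (31.9% of all genes did not overlap).

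The 4 immobilized Sesn1KO libraries spread widely in Arntl, Per3, Dbp and Nr1d1. Arntl read 69.3, 44.3, 29.5 and 24.8 in replicates 1 to 4, against 17.99, 22.3, 14.8 and 22.6 in the basal group. Dbp read 6.50, 4.13, 32.1 and 26.6 in the same replicates, against 19.9, 17.2, 27.9 and 15.9. Replicates 1 and 2 thus had the highest Arntl and the lowest Dbp of all libraries of set 2, and replicates 3 and 4 lay in the range of the other groups for Dbp.

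Per3 was also lowest in replicates 1 and 2 of immobilized Sesn1KO muscle, with 5.70, 6.80, 12.9 and 19.7 against 14.3, 17.2, 16.97 and 19.2 in basal muscle. Nr1d1 was not, with 178, 86.1, 94.1 and 68.1 against 110, 107, 117 and 102. Arntl rose by 0.98 ± 0.27 (adjusted p = 0.0072), while Dbp, at -0.60 ± 0.43 (adjusted p = 0.29), did not pass the test. The Per3 call (-0.69 ± 0.25, adjusted p = 0.032) was lost without basal replicate 2 (-0.68, 0.061), 3 (-0.68, 0.058) or 4 (-0.63, 0.08) and without immobilized replicate 1 (-0.45, 0.14) or 2 (-0.52, 0.12). Cry1, the other Cryptochrome (chromosome 10, 85131700 to 85185064), had 17.6, 18.1, 12.9 and 15.9 against 10.4, 12.2, 13.2 and 12.8 (-0.38 ± 0.13, adjusted p = 0.025), a call lost without basal replicate 1 (-0.33, 0.073) or 2 (-0.32, 0.084) or immobilized replicate 1 (-0.31, 0.08). Per3 (-0.58, 0.079) and Cry1 (-0.27, 0.13) were both lost with the same sum per library and with only these groups in the fit (0.1 and 0.057), and Cry1 with the same median (-0.33, 0.06). Without immobilized replicate 3, 9 members were called, Clock (0.36, adjusted p = 0.015), Nr1d2 (-0.26, 0.027) and Dbp (-1.02, 0.05) being added. Leukocyte markers also spread in this group, from 49.7 to 290 against 37.4 to 62.0 in basal Sesn1KO muscle, and 2 of 3 endothelial markers fell. Their part in the spread was not tested.

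Clock as well as Per1, Per2 and Cry2 were higher in denervated than in basal WT muscle. In denervated against basal WT muscle 4 members rose (27.8% of all genes were called higher) and Cry1 fell (27.7% lower), so 5 of 10 were called where 55.5% of all genes were. Members' median log2 fold change was 0.45 (all genes -0.03). Denervated and immobilized WT muscle of set 2 share the same basal libraries, and the values of each are given side by side.

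Clock, the partner of BMAL1, had 25.8, 24.8, 22.9 and 29.7 in basal WT muscle, 30.2, 36.3, 32.7 and 29.1 in immobilized and 53.6, 64.2, 55.9 and 48.0 in denervated muscle. All denervated libraries lay above all others of WT muscle in set 2. Of all genes, 53.2% did not overlap between denervated and basal muscle and 37.3% between denervated and immobilized muscle, so separate groups were common here. The log2 fold change was 1.07 ± 0.13 against basal (adjusted p = 4.26e-07) and 0.77 ± 0.13 against immobilized muscle (adjusted p = 6.74e-05). Arntl, by contrast, had 14.4, 13.7, 20.1 and 20.1 in denervated libraries, inside the basal range (17.2, 18.03, 11.65 and 27.9), at -0.08 (95% interval -0.65 to 0.49).

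Per1 had 40.9, 68.4, 51.8 and 53.7 in denervated muscle (1.71 ± 0.26 against basal, adjusted p = 1.27e-05). Cry2 had 51.2, 48.2, 51.3 and 62.6 (0.91 ± 0.15, adjusted p = 2.11e-05). Neither differed by the test between denervated and immobilized muscle, with log2 fold changes of -0.10 (95% interval -0.65 to 0.45) for Per1 and -0.12 (-0.43 to 0.18) for Cry2. Per2 had 17.3, 19.1, 20.3 and 17.3, above every basal and every immobilized WT library of the set (1.01 ± 0.20 against basal, adjusted p = 0.00017). Its difference from immobilized muscle (0.53 ± 0.20, adjusted p = 0.038) was lost when any of 7 of the 8 libraries was left out, all but immobilized replicate 4 (adjusted p between 0.052 and 0.095), with quantile normalization (0.46, 0.074) and with the same median per library (0.50, 0.052).

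Cry1 had 9.07, 9.91, 8.88 and 8.48 in denervated muscle, against 15.2, 14.2, 13.7 and 20.7 in basal and 11.3, 12.98, 13.2 and 13.2 in immobilized muscle. The denervated libraries lay below all of these, against the 53.2% and 37.3% of all genes without overlap. The log2 fold change was -0.73 ± 0.13 against basal (adjusted p = 5.24e-05) and -0.44 ± 0.13 against immobilized muscle (adjusted p = 0.0096), where 3 of 10 members were called and 38.9% of all genes (20.5% higher and 18.4% lower). With the same sum per library it was -0.30 (adjusted p = 0.056) and -0.13 (0.47). The sum of all values in denervated libraries was the lowest of any group, as given above, and the sum of muscle fibre markers was 44080 to 58560, where all 5 markers fell. All 3 endothelial (median log2 fold change -1.05), all 3 adipocyte (-1.03), 2 of 4 fibroblast and 1 of 3 Schwann cell markers also fell after denervation, and 1 of 5 leukocyte markers rose. Their part in these changes was not tested.

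Dbp had 79.4, 58.9, 70.7 and 73.6 in denervated muscle, all above the highest basal library (58.4), though the lowest only just. Of all genes, 53.2% did not overlap between these groups. The log2 fold change of 0.93 ± 0.43 did not pass the test (adjusted p = 0.071) but was called without basal replicate 3 (1.15, 0.04), with only these groups in the fit (0.93, 0.0025), with the replicate block (0.93, 0.04) and with the same sum per library (1.39, 0.0068). Against immobilized muscle it was at 0.83 (0.13), called with only these groups in the fit (0.0047) and with the same sum (1.17, 0.025). Nr1d2 moved by -0.22 ± 0.10 (adjusted p = 0.056), called without basal replicate 2 (-0.26, 0.048). Against immobilized muscle Nr1d2 was at 0.11 (0.41), called with the same sum per library (0.44, 0.00055). Nr1d1 and Per3 moved by -0.02 and -0.32 (adjusted p = 0.95 and 0.28).

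**Figure D3:**
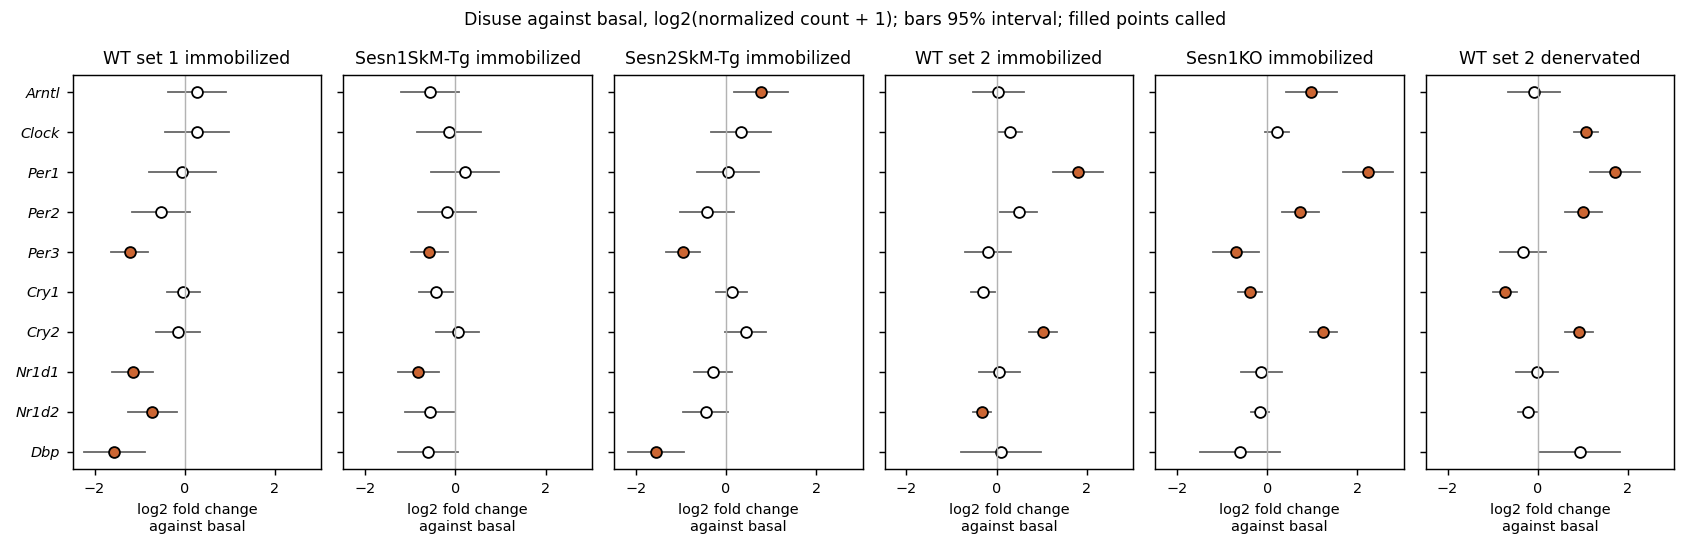
Log2 fold change against basal muscle (x axis, log2 of normalized count + 1) of each clock gene (y axis) in the 6 comparisons of disuse with basal muscle. Bars are 95% intervals of the limma fit and filled points are called. Per3 and Dbp lie to the left in WT and Sesn2SkM-Tg muscle of set 1, and Per1 and Cry2 lie to the right in all 3 panels of set 2.

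Over the 6 comparisons of disuse with basal muscle no member was called in both directions. Per3 was called lower in 4, and Cry1, Nr1d1, Nr1d2 and Dbp lower in 2 each. Per1 and Cry2 were called higher in 3 each, all in set 2, Arntl and Per2 in 2 and Clock in 1.

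How WT muscle responded to immobilization was compared directly between the sets, since a call in one set and not in the other does not show a difference. All 42 libraries entered that fit, the groups of the sets share no library, and 3 of 10 members differed, all with the lower effect in set 1 (6.2% of all genes were called, 3.16% lower and 3.04% higher). Per1 differed by -1.86 ± 0.47 (adjusted p = 0.014), at -0.05 in set 1 and 1.81 in set 2. Cry2 differed by -1.19 ± 0.28 (adjusted p = 0.0095) and Nr1d1 by -1.22 ± 0.33 (adjusted p = 0.021). The labels do not say what sets the sets apart, and the deposited values look adjusted per gene between them, so handling, mice and collection time of a set cannot be told apart. Without basal WT replicate 4 of set 1 the Per1 difference was -1.68 (adjusted p = 0.029), and Arntl went from 0.23 to -0.03.

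The Nr1d1 difference was lost without basal replicate 3 (-1.10, adjusted p = 0.057) or immobilized replicate 2 (-1.13, 0.053) of set 2 and without immobilized replicate 2 (-1.07, 0.073) or 3 (-1.14, 0.075) of set 1. It was also lost with quantile normalization (-1.02, adjusted p = 0.054) and with the same sum per library (-1.01, 0.055), under which called genes split into 619 higher and 110 lower in place of 418 and 435. Dbp (-1.66 ± 0.58, adjusted p = 0.077), Per3 (-1.03 ± 0.33, 0.052) and Per2 (-1.02 ± 0.38, 0.1) did not pass the test. Per3 was called without basal replicate 3 (-1.14, 0.047) or immobilized replicate 3 (-1.14, 0.044) of set 2, with the same median per library (-1.09, 0.039) and without the 2 libraries that stood apart (-1.04, 0.041), and Per2 without basal replicate 1 (-1.26, 0.038) or immobilized replicate 1 (-1.34, 0.029) of set 1 or basal replicate 3 of set 2 (-1.25, 0.049). With only the 4 WT groups in the fit, 5 members differed, Per3 (adjusted p = 0.024) and Dbp (0.033) being added.

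**Figure D4:**
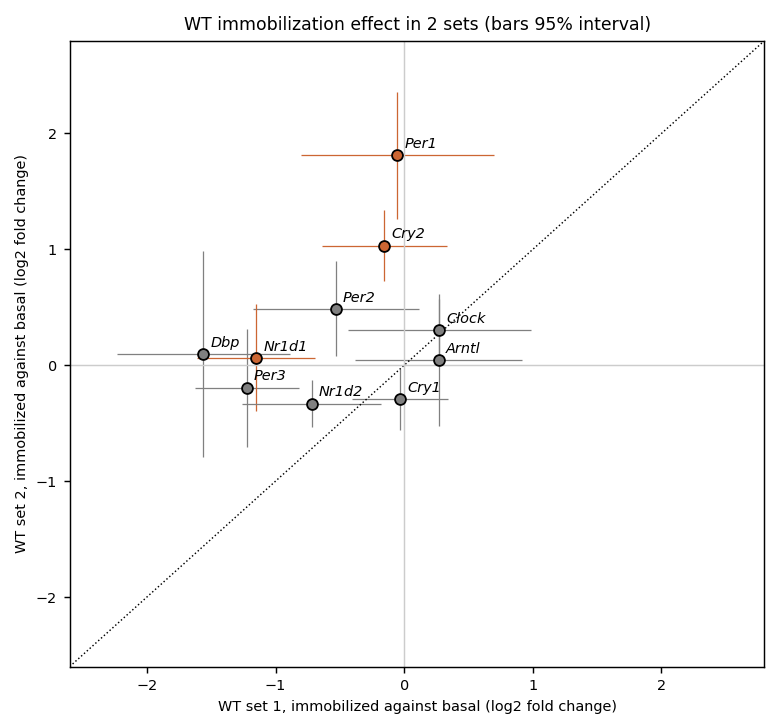
Log2 fold change of immobilized against basal WT muscle in set 1 (x axis) and set 2 (y axis), with 95% intervals as bars and a dotted line of equal change. Orange points are the 3 genes whose effect differed between the sets by the test (Per1, Cry2, Nr1d1), and all 3 lie above the line.

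The sestrin genotypes left few called clock genes. Per1 was the only member called between a genotype and WT muscle, in Sesn2SkM-Tg. Basal Sesn2SkM-Tg libraries had 44.5, 66.6, 84.5 and 37.7 against 15.3, 17.1, 27.8 and 32.8 in basal WT muscle of set 1, and immobilized ones 56.4, 54.5, 54.1 and 64.8 against 19.9, 23.2 and 21.0. All Sesn2SkM-Tg libraries lay above all WT libraries in both treatments. The share of all genes without overlap was not computed between genotypes, here or below, so how common such separation is remains unknown.

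The Per1 log2 fold change was 1.29 ± 0.33 in basal (adjusted p = 0.04, 2.5% of all genes called and 1.5% higher) and 1.39 ± 0.36 in immobilized muscle (adjusted p = 0.041, 2.94% called and 1.65% higher). These calls lie near the threshold, and both were lost with the replicate block (adjusted p = 0.063 and 0.072). In basal muscle the call was lost without any of 6 of the 8 libraries, all but WT replicate 4 and Sesn2SkM-Tg replicate 4 (values 1.09 to 1.39 and adjusted p from 0.055 to 0.15 where lost), without both libraries that stood apart (1.38, 0.051), with quantile normalization (1.24, 0.055), with the same median per library (1.26, 0.052) and with only these groups in the fit (adjusted p = 0.089), while without WT replicate 4 it was 1.47 (0.015). In immobilized muscle it was lost without any single library (values 1.33 to 1.44 and adjusted p from 0.062 to 0.13) and with the same median per library (1.37, 0.051). Sesn2SkM-Tg muscle was compared with WT muscle without a second line, and basal Dbp (0.39, adjusted p = 0.6) and Arntl (-0.49, 0.45) did not pass the test.

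No member was called between Sesn1SkM-Tg and WT muscle by limma, basal (2 of 10 at an unadjusted p under 0.05, 0.0292% of all genes called) or immobilized (0 of 10 at that p, 0.0073% called). Of the 13705 genes tested, 497 in basal and 417 in immobilized muscle had an unadjusted p under 0.05. Per3 was lower in basal Sesn1SkM-Tg than in basal WT libraries without overlap (share of all genes not computed), 21.3, 21.0, 13.2 and 17.02 against 24.8, 32.0, 29.4 and 28.0, yet at an adjusted p of 0.72 (log2 fold change -0.65 ± 0.18, unadjusted p = 0.0017).

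Sesn1KO against WT muscle also had 0 of 10 called, basal (3 at an unadjusted p under 0.05, 0.147% of all genes called, 0.0587% higher and 0.088% lower) and immobilized (5 at that p, 0.947% called, 0.528% higher and 0.418% lower). Of the 13629 genes tested, 632 in basal and 1917 in immobilized muscle had an unadjusted p under 0.05. In basal muscle Nr1d2 was at -0.45 ± 0.10 (adjusted p = 0.1), with all 4 Sesn1KO libraries (92.7, 97.0, 101 and 101) below the WT ones (143, 124, 142 and 126). It was called with only these groups in the fit (adjusted p = 0.021) and with the same sum per library (-0.48, 0.033). Basal Per2 was at -0.83 ± 0.20 (adjusted p = 0.19), again with all Sesn1KO libraries below WT (share of all genes without overlap not computed). In immobilized muscle Dbp was at -1.55 ± 0.43 (adjusted p = 0.085), Per3 at -0.99 ± 0.25 (0.057) and Arntl at 1.04 ± 0.27 (0.072). Without replicate 4 the 4 members Arntl (1.24, adjusted p = 0.015), Per2 (-0.77, 0.024), Per3 (-1.29, 0.0012) and Dbp (-1.89, 0.017) were called, and without replicate 3 Nr1d2 (-0.38, 0.048) and Dbp (-1.97, 0.022).

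The immobilization effect itself did not differ by the test between a genotype and the WT muscle of its set for any member. The unadjusted p was under 0.05 for 2 members in Sesn1SkM-Tg, 1 in Sesn2SkM-Tg and 1 in Sesn1KO muscle. Among all genes tested it was under 0.05 for 401 of 13705, 1008 of 13705 and 1087 of 13629, and 0%, 0.0073% and 0.022% were called. The lowest adjusted p was 0.48, for Nr1d1 in Sesn2SkM-Tg muscle (difference 0.86, 95% interval 0.24 to 1.48). For Dbp in Sesn1SkM-Tg muscle the difference was 0.95 (interval 0.00 to 1.91).

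Arntl and Dbp were set against each other in every library, as genes that peak at nearly opposite times. Nr1d1, named above as also peaking opposite to Arntl, instead varied with Arntl within groups. Its r was 0.53 in set 1 and 0.73 in set 2, not passing after adjustment. The ratio of Arntl to Dbp is therefore a description and was not tested as a measure of phase. The log2 ratio of Arntl to Dbp ran from -3.15 to -0.04 over the 4 basal WT libraries of set 1 (lowest -2.42 without replicate 4, which stood apart) and from -2.33 to 0.20 over those of set 2. It was between -3.02 and -1.86 in basal Sesn2SkM-Tg muscle and between -0.996 and 0.02 in basal Sesn1SkM-Tg muscle, ranges that did not overlap. These transgenic groups were not compared by a test, and the share of all genes that separates them was not computed. After immobilization the ratio was -0.24 to 0.62 in WT, -0.63 to -0.16 in Sesn1SkM-Tg and -1.13 to 0.995 in Sesn2SkM-Tg muscle. In set 2 it was -2.01 to -0.07 in immobilized and -2.46 to -1.81 in denervated WT muscle, -0.92 to 0.50 in basal Sesn1KO muscle, and 3.41, 3.42, -0.13 and -0.10 in the immobilized Sesn1KO libraries. Denervated muscle had the narrowest range among the WT groups, and immobilized Sesn1KO muscle the widest of all groups.

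**Figure D5:**
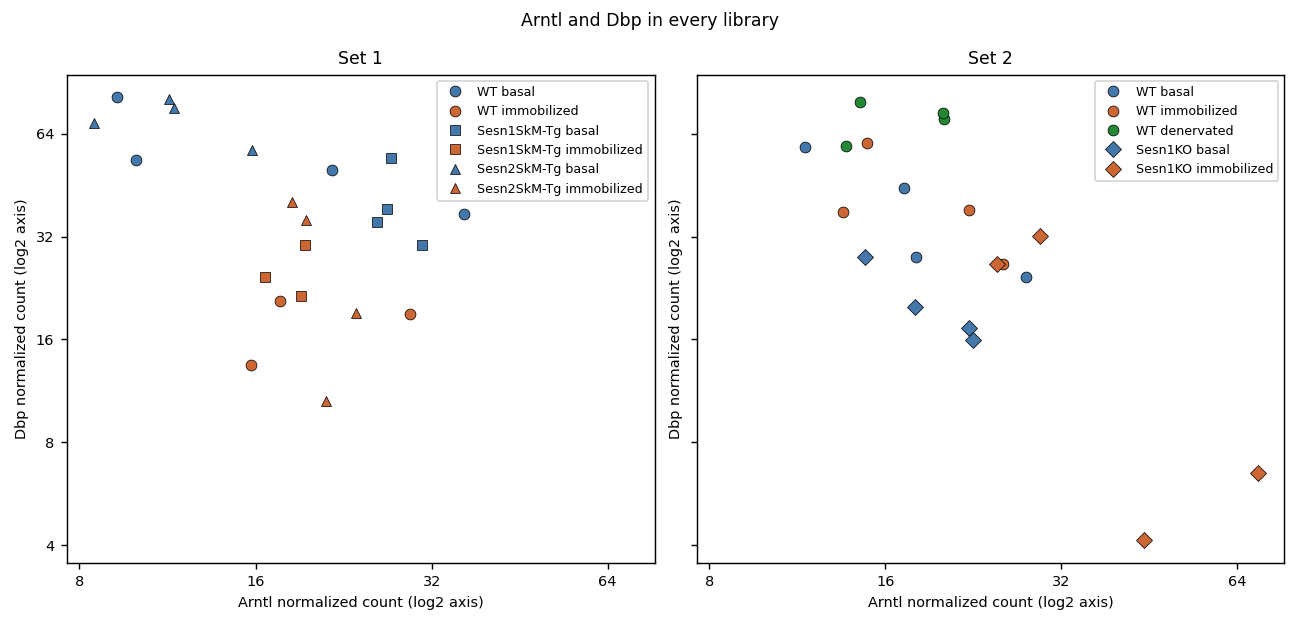
Normalized counts of Arntl (x axis, log2) and Dbp (y axis, log2) in each library of set 1 (left) and set 2 (right). Colours give the treatment and shapes the genotype. Basal WT libraries spread from high Dbp with low Arntl to low Dbp with high Arntl, and 2 immobilized Sesn1KO libraries lie alone at the lower right.

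Within groups, the other 9 members were compared with Arntl by their deviations from the group means, over the 22 libraries of set 1 and the 20 of set 2, which share group means. In set 2 Dbp ran against Arntl (Pearson's r = -0.74, permutation p = 0.0095, Spearman's rho = -0.71, permutation p = 0.0086) and Nr1d1 ran with it (r = 0.73, permutation p = 0.0075, rho = 0.55, permutation p = 0.043). Neither passed after Benjamini-Hochberg adjustment over the 18 correlations (adjusted permutation p = 0.085 for r of each, and 0.15 and 0.21 for rho). Without the 2 libraries farthest from the median Arntl deviation r was -0.69 for Dbp and 0.50 for Nr1d1. In set 1 the same r values were -0.38 for Dbp (permutation p = 0.073, rho -0.41, permutation p = 0.1) and 0.53 for Nr1d1 (permutation p = 0.035, rho 0.46, permutation p = 0.075), and -0.14 and 0.57 without the 2 farthest libraries. The remaining 14 correlations had adjusted permutation p of at least 0.12 for r.

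Among the 12125 genes with a mean of at least 1 in both sets, ranked by the weaker of their 2 set correlations with a member (deviations from group means), those most like Arntl included B3galnt2 (r = 0.63 in set 1 and 0.69 in set 2), Pik3ca, Tmem41b and Tsr1, and the 5 least like it were Ak4 (-0.80 and -0.66), Gipc1, Mcm3, Atp1b1 and Plbd1. Most like Dbp were Gmpr (0.78 and 0.78), Sema6c, Rtn4ip1, Prkaca and Mmachc, and least like it Nup210 (-0.75 and -0.86), Ankrd10, Spg20, Sf3b3 and Srsf1. Nr1d1 ranked 23 and Clock 39 in likeness to Arntl, but 911 and 1816 with deviations from the set means, and Clock's r in set 1 went from 0.53 to 0.22 without the 2 libraries farthest in Arntl. Libraries share depth and composition, and these correlations are a description.

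Of 19 other clock genes 17 were tested, and they moved in both directions. After immobilization 1 was called higher and 6 lower in WT muscle of set 1, 1 and 3 in Sesn1SkM-Tg and 2 and 5 in Sesn2SkM-Tg. In set 2 it was 4 and 2 in WT, 4 and 2 in Sesn1KO and 5 and 5 in denervated muscle. Of all genes, 14.9%, 18.2%, 15%, 16.2%, 17.2% and 27.8% were called higher in these comparisons. Called lower were 14.5%, 16.5%, 15.7%, 17.7%, 19.9% and 27.7%. Hlf, a D-box factor related to Dbp, was called lower in 5 of the 6 comparisons, with log2 fold changes of -0.72 (WT set 1), -0.79 (Sesn2SkM-Tg), -0.46 (WT set 2), -1.10 (Sesn1KO) and -1.14 (denervated). Tef, the third gene of that family, was called higher in set 2 alone, at 0.54 in WT, 0.28 in Sesn1KO and 0.25 in denervated muscle, while it lay between -0.20 and -0.03 in set 1.

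Bhlhe40 and Bhlhe41 encode E-box repressors. Bhlhe41 fell in WT of set 1 (-1.53), Sesn1SkM-Tg (-1.06), Sesn2SkM-Tg (-1.27) and denervated muscle (-1.67), and Bhlhe40 fell in WT of set 1 (-1.34), Sesn1SkM-Tg (-0.94), Sesn2SkM-Tg (-0.59) and Sesn1KO muscle (-1.29). Ciart, another repressor of CLOCK and BMAL1, was called lower in WT of set 1 (-1.19) and Sesn2SkM-Tg (-0.83) and higher in immobilized (0.999) and denervated (1.23) WT muscle of set 2. Usp2 was likewise lower in WT of set 1 (-0.68) and Sesn2SkM-Tg (-0.61) and higher in Sesn1KO muscle (0.39).

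Rora, which activates Arntl through the element that the REV-ERB receptors occupy, rose in WT of set 2 (0.69), Sesn1KO (0.71) and denervated muscle (0.87). Csnk1d, the kinase that marks Period proteins for degradation, rose in the same 3 comparisons (0.35, 0.59 and 0.50). Timeless rose in WT of set 1 (0.73), Sesn1SkM-Tg (0.99) and Sesn2SkM-Tg muscle (0.85).

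Genes of signals that act on Per1 were looked at beside it. Of the glucocorticoid-induced genes Fkbp5, Tsc22d3, Zbtb16, Sgk1, Cebpd and Klf9, 2 rose and 1 fell in WT of set 1, 1 rose and 1 fell in Sesn1SkM-Tg, 4 rose in Sesn2SkM-Tg, 2 rose in WT of set 2, 3 rose in Sesn1KO, and 1 rose and 3 fell in denervated muscle. Of the 6 immediate early genes tested (Fos, Jun, Junb, Egr1, Ier2 and Atf3, with Fosb absent from the data), 1, 2, 3, 4, 3 and 3 rose in the same order of comparisons and none fell. Of all genes, 14.9%, 18.2%, 15%, 16.2%, 17.2% and 27.8% were called higher in that order. Called lower were 14.5%, 16.5%, 15.7%, 17.7%, 19.9% and 27.7%. Of 5 muscle genes with a daily rhythm (Tcap, Myod1, Pdk4, Ucp3, Klf15), between 0 and 2 rose and between 0 and 2 fell in each comparison. Their part in the Per1 values was not tested.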

How the data were processed

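RNA of tibialis anterior muscle was sequenced (NEBNext Ultra, Illumina HiSeq) in 42 libraries. The authors trimmed reads with Cutadapt 1.7.1, discarding reads under 30 bases, quantified them against the GRCm38 transcriptome (release 76) with RSEM 1.2.20 and normalized them with limma. The sample records also name edgeR, without a version. The deposited signal is a normalized count per gene, neither log transformed nor divided by length, and how genes were filtered and the sets combined is not given in the sources used here. Read depth is unknown. All library columns of the table were used. The members and the other gene lists were chosen with earlier results of these data known.

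Genes that reached 1 in any library of a set were kept. In R 4.3.3 with limma 3.58.1, log2(value + 1) was fitted with 1 coefficient per group (lmFit, eBayes with trend), each set apart except for the comparison of the sets, and two-sided p-values were adjusted by Benjamini-Hochberg over all genes. Calls used the study's thresholds, an adjusted p below 0.05 with a log2 fold change of 0.25 or more either way. The fit was tested on simulated data. Correlations with Arntl used 100000 shuffles within groups (two-sided). Named genes are the 10 members, other clock genes called in at least 3 of 6 disuse comparisons, and the 5 genes most and least like Arntl or Dbp, of which 1 is not reported here. Gene positions and exon lengths are from GENCODE M21 (GRCm38). Alternatives were a pseudocount of 0.1, no filter or a filter of 3 libraries, quantile, sum and median scaling, eBayes without trend, only the compared groups, the replicate number as a block, a fold threshold of 1, each library left out and, chosen after seeing the data, 2 libraries left out together.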

Additional observations from a re-analysis of the deposited data

Results flagged for a closer look

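The WT immobilization effect differed between the sets, by the test of the difference itself, for Per1 (-1.86 on the log2 scale, set 1 minus set 2), Cry2 (-1.19) and Nr1d1 (-1.22). In a group of 4, a library lay farther from the others than Dixon's 95% limit in 2 of the 90 groups tested (10 genes in 9 groups), where chance gives about 1 in 20. Per3 in immobilized Sesn2SkM-Tg replicate 2 was 10.3, below the others at 14.3 to 15.0, and Cry1 in immobilized WT replicate 1 of set 2 was 11.3, below the others at 12.98 to 13.2.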

How the results depend on the processing

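Of 3390 member values under the alternatives, 3257 kept their direction, if called, and their side of the threshold, 86 lost a call, 47 gained one and none of the called values reversed, while 149 values called in neither setting changed sign. The number of members called moved by over 1.5 times as follows. In Sesn1SkM-Tg after immobilization it was 2, but 0 with the same sum per library, 6 with only the compared groups, 4 without the 2 libraries that stood apart and 0 with a log2 fold threshold of 1. That fold threshold also gave 1 in Sesn2SkM-Tg, 2 in Sesn1KO, 3 after denervation and 0 for denervation against immobilization. Sesn2SkM-Tg gave 5 without the 2 libraries, and WT of set 2 gave 5 with the same median per library. For basal Sesn2SkM-Tg against WT it was 0 with quantile normalization, the same median, only the compared groups, the replicate block, or without the 2 libraries. For immobilized Sesn2SkM-Tg against WT it was 0 with the same median and the replicate block. Basal Sesn1KO against WT gave 1 with the same sum and with only the compared groups, and the difference between the sets gave 5 with only the compared groups. The cause of these moves was not tested, beyond the higher threshold and the smaller samples themselves.

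Leaving out each library in turn gave 3 to 4 called members in WT of set 1, 1 to 2 in Sesn1SkM-Tg, 2 to 3 in Sesn2SkM-Tg, 3 to 4 in WT of set 2, 4 to 9 in Sesn1KO, 5 to 6 after denervation and 2 to 3 for denervation against immobilization. It gave 0 to 1 for basal Sesn2SkM-Tg and 0 for immobilized Sesn2SkM-Tg against WT, 0 to 4 for immobilized Sesn1KO against WT, 2 to 4 for the difference between the sets, and 0 in the other comparisons. Called genes split 156 higher and 205 lower with the same sum per library for immobilized Sesn2SkM-Tg against WT (226 and 177 as deposited) and 46 and 57 for immobilized Sesn1KO (72 and 57). Over all genes, the fold threshold of 1 called 1045, 1299 and 950 genes in the WT, Sesn1SkM-Tg and Sesn2SkM-Tg comparisons of set 1 (as reported 4018, 4756 and 4204), 686 and 889 in WT and Sesn1KO of set 2 (4624 and 5054), 2014 and 933 for denervation against basal and immobilized muscle (7567 and 5297), 125 and 142 for Sesn2SkM-Tg against WT (343 and 403), 35 for immobilized Sesn1KO (129) and 389 for the difference between the sets (853). With only the compared groups 2665 genes were called in WT of set 1, 93 in basal Sesn2SkM-Tg and 14 in immobilized Sesn1KO against WT, and the replicate block gave 229 in immobilized Sesn2SkM-Tg. With all libraries, comparisons with 0 to 4 called genes gave 0 to 5. Over the fits that left out libraries, calls over all genes reached 2020 in WT of set 1 without immobilized replicate 3, 2791 in Sesn1SkM-Tg without its immobilized replicate 3, 1027 in basal Sesn2SkM-Tg against WT without WT replicate 4, 1079 in immobilized Sesn2SkM-Tg against WT without the 2 libraries that stood apart and 608 in immobilized Sesn1KO against WT without Sesn1KO replicate 4.

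Replicate numbers were given by the labels. Same-numbered libraries of different groups correlated over 0.1 in 18 of 51 pairs of set 1 (median r 0.04) and 6 of 40 of set 2 (median -0.03). Differently numbered libraries did so in 44 of 150 pairs of set 1 (median 0.019) and 18 of 120 of set 2 (median 0.0075). With groups of 3 or 4 libraries, these correlations cannot decide whether same-numbered libraries shared handling. With the replicate block, Per1 was lost in basal (1.29, adjusted p = 0.063) and immobilized (1.37, 0.072) Sesn2SkM-Tg against WT, and Dbp was gained after denervation (0.93, 0.04). The 54 correlations with Arntl recomputed under 3 alternatives stayed on their side of the threshold. Only 2 of the 20 genes most or least like Arntl or Dbp remained when deviations were taken from the set means. Read depth is unknown, so counting error limits low genes such as Per2 to an unknown degree.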
